A study of Penicillium oxalicum with 114 samples.

Results

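A group of 37 genes, of 9863 gene IDs in all, stood much lower on Avicel than on wheat bran plus Avicel in the control strain of Penicillium oxalicum. Avicel (AV) is microcrystalline cellulose, and WA stands here for wheat bran plus Avicel. The members were chosen by their levels in the control strain Ku70, as counts scaled to a common library total (CPM), with a gene absent from a table taken as 0. The lowest of 3 WA libraries had to reach 10 CPM and 4 times the highest of 3 AV libraries plus 1 CPM, at both 12 h and 36 h. No ceiling was set on AV, where POX01238 reached 634 CPM at 36 h. The condition was met by 116 IDs at 12 h and by 136 at 36 h, and the 37 are those that met it at both times. One of the WA libraries counted as 12 h is labelled 13 h.

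Penicillium oxalicum is a filamentous fungus known for secreted enzymes that break down plant polysaccharides, and it regulates many of their genes by the carbon source. Wheat bran holds arabinoxylan, starch and protein beside cellulose, whereas Avicel offers cellulose. In filamentous fungi ClrB is known as a zinc-cluster transcription factor needed for cellulase genes to be transcribed on cellulose. The files give no gene names or products, so the members are named by ID and no function is given to them. None of the cellulase, xylanase and amylase genes listed by ID from the study group's earlier publications, and none of the deleted genes given by ID, is a member.

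The series compares carbon sources and regulator mutants to find genes whose transcripts follow the cellulase and xylanase genes. It holds RNA-seq libraries of mycelium in 33 groups. Ku70 lacks the KU70 gene, dClrB lacks ClrB, and dPOX01167 lacks POX01167. Hyphae were moved from glucose medium to AV or WA, with 3 libraries in each group: Ku70 on AV at 12 and 36 h and on WA at 12, 24 and 36 h, dClrB on both media at all 3 times, and dPOX01167 on AV at 12 and 36 h and on WA at 12, 24 and 36 h. The wild type HP7-1 carries none of these deletions and was grown from spores for 72 h, on 2% glucose (3 libraries) and, with 1 library each, on wheat bran, wheat bran plus rice straw and wheat bran plus bagasse. Other groups serve as references. Ku70 (24 libraries), dClrB, dPOX02968, dPOX04420 and OES1167, which overexpresses POX01167 from its own promoter (3 each), spent 24 h on 2% Avicel, called an induced carbon source in the labels. With 3 libraries each, dClrB and dPOX01167 were kept on 2% Avicel for 72 h from spores, with no transfer, although the protocol text of that dPOX01167 group names HP7-1 spores. Ku70 and dPOX07277 were moved from glucose to AV supplied with oleic acid, linolenic acid or arachidonic acid oil and sampled at 24 h, again with 3 libraries per group. The strains named by a lower-case d lack the gene that follows it. The labels name replicates only by a letter or number, so they may be technical, and p-values measure only the spread between these libraries. In bulk mycelium, fewer cells that transcribe a gene and less RNA per cell cannot be told apart.

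The 48 transferred libraries total 5368155 to 8267079 expected counts each, and the 6 HP7-1 libraries 365937 to 3115003, lowest on glucose (365937 to 902988). POX01167 stood at 0 to 0.791 CPM in the 9 dPOX01167 libraries on WA, against 9.45 to 27.3 CPM in the 9 of Ku70. In libraries labelled dPOX01167 on AV, however, it was at 0, 25.4 and 1603 CPM at 12 h. At 36 h they held 95.6 to 207 CPM. Thus 5 of those 6 libraries list counts of the gene that their label names as deleted, and all are called by label only. On AV Ku70 held 98.7 to 1236 CPM and dClrB 163 to 1719 CPM. The level also varied inside groups, as in Ku70 on AV at 36 h (1214, 1236 and 157 CPM). What these counts say of the strain was not tested. The files do not pair an ID with ClrB. POX01960, picked after its values were seen, was at 0 to 3.49 CPM in all 24 dClrB libraries and at 33.03 to 541 CPM in all 48 of Ku70.

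The values that chose the members are given as a description. The summed level of the 37 in Ku70 was 1951 to 2709 CPM on AV at 12 h and 2139 to 2475 CPM on AV at 36 h. On WA it was 26671 to 32643 CPM at 12 h, and at 36 h 17160 to 21822 CPM. The smallest margins inside the threshold were those of POX07227, whose lowest WA level was 4.03 times the highest AV level plus 1, and of POX03707, also at 4.03 times. Just outside were POX01339 at 3.93 times and POX03255 at 3.92 times. On the level itself, POX00247 came closest from inside, with 10.4 CPM in its lowest WA library, while POX00018 failed with 4.58 CPM.

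**Figure D1:**
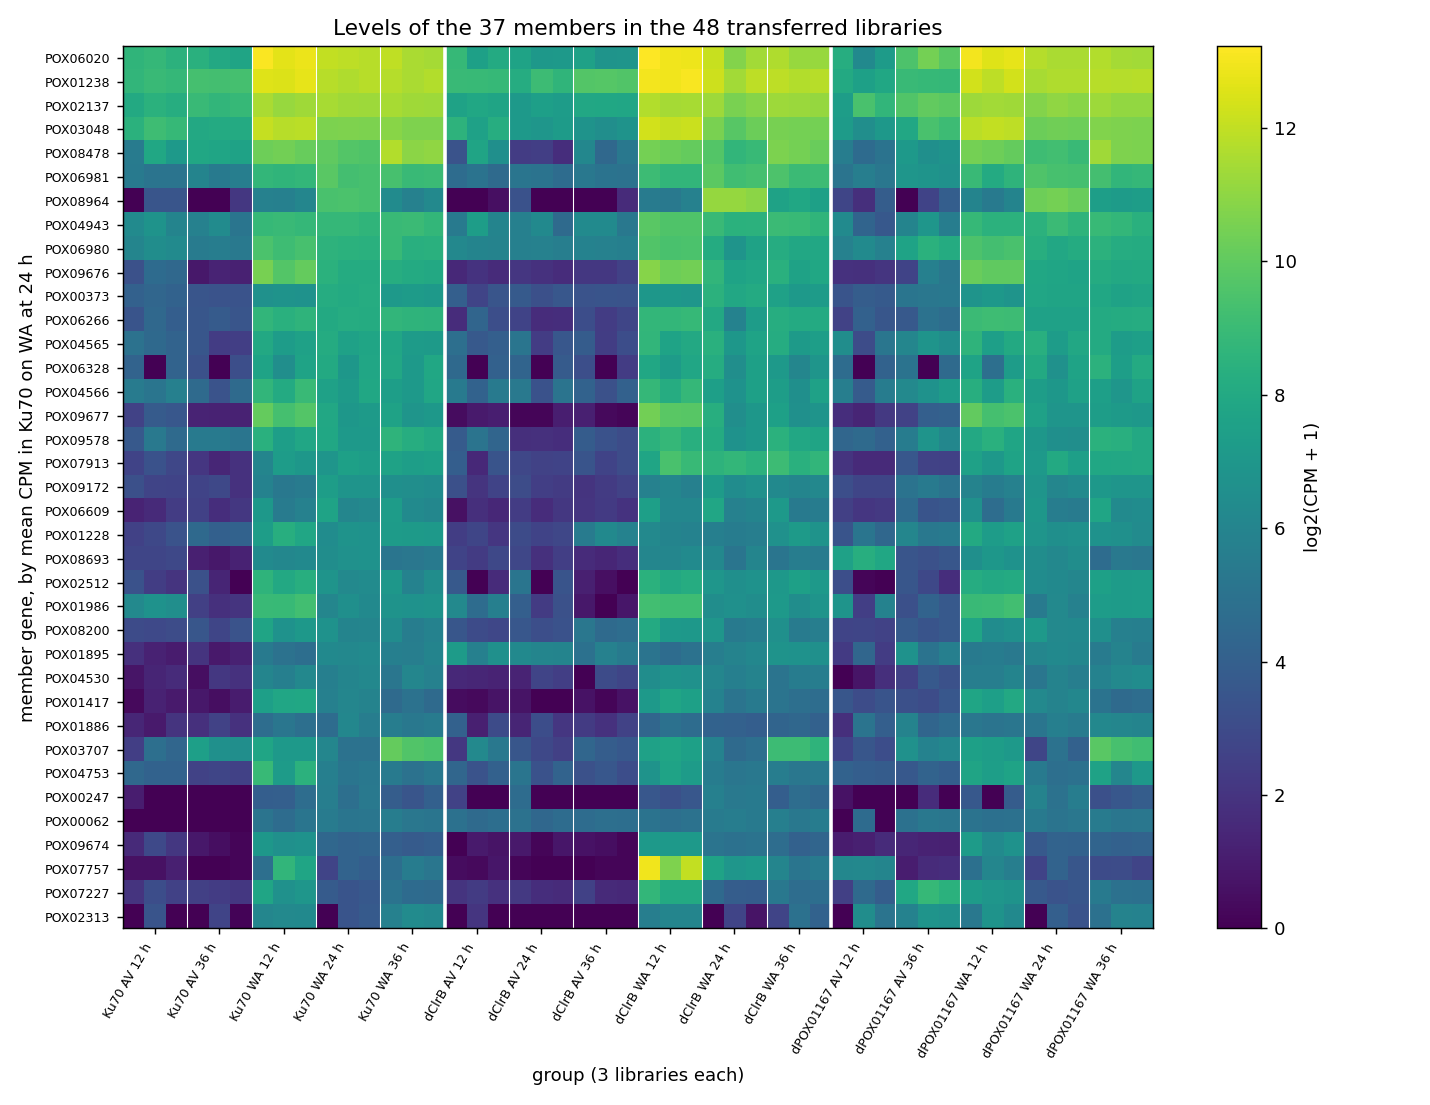
Levels of the 37 members, as log2(CPM + 1) by colour, in the 48 transferred libraries, 3 per group and ordered by strain, medium and time, with genes ordered by their mean level in Ku70 on WA at 24 h. The AV columns are darker than the WA columns in dClrB as in Ku70, and POX07757 is brightest in dClrB on WA at 12 h.

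Ku70 on WA at 24 h was not used to choose the members. There the summed level was 17068, 17151 and 19091 CPM, above all 6 Ku70 libraries on AV, and 36 of the 37 had a mean of at least 10 CPM. Those AV libraries, of 12 h and 36 h, were used to choose the members as lower there, so this order is a description. A few members held most of the summed level at 24 h, the 3 highest taking 56.3% and the 5 highest 70.0% of the sum of means. POX06020 stood at 3644, 3848 and 4159 CPM, POX01238 at 3251, 3586 and 3588 CPM, and POX02137 at 2481, 2578 and 2850 CPM. The next were POX03048 with a mean of 1574 ± 31 CPM (SD, n = 3), POX08478 with 861 CPM and POX06981 with 735 CPM.

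Per length, the order differed. By deposited FPKM, which divides by gene length, POX01238 was highest in Ku70 on WA at 24 h with a mean of 3913 FPKM, followed by POX08478 with 2602 FPKM, POX02137 with 1805 FPKM and POX06020 with 1604 FPKM. POX06981 and POX03048 followed at 1352 and 1023 FPKM. POX04943, POX08964, POX08200 and POX06328 completed the 10 highest at 796, 597, 485 and 367 FPKM. Coding lengths of the members ran from 324 bases (POX08200) to 3918 bases (POX08693), with a median of 1059 against 1151 bases over 9834 genes.

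The lowest members at that time were POX02313, POX07227 and POX07757. POX02313 was listed at 0, 9.96 and 12.2 CPM on WA at 24 h, between 65.6 to 77.3 CPM at 12 h, and at 36 h 55.4 to 83.7 CPM. It was the one member whose mean at 24 h fell under 10 CPM. Whether its listed 0 is a failed estimate was not tested. POX07227 was at 9.64, 11.5 and 13.0 CPM, against 102 to 216 CPM at 12 h.

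In the dClrB mutant most of the members were again higher on WA than on AV. By edgeR's quasi-likelihood test, with a Benjamini-Hochberg adjusted p under 0.05 and a log2 fold change of at least 1, 34 of 37 were higher on WA at 12 h, 33 at 24 h and 36 at 36 h. Over all 8147 genes tested, 13.5% were called higher at 12 h, 9.01% at 24 h and 9.81% at 36 h. The median log2 fold change of the members was 4.14, 3.89 and 4.36 at the 3 times, against -0.11, -0.01 and 0.05 over all genes tested. All 37 passed the filter of a mean of 1 CPM over the 48 libraries, but 32 would have passed on the dClrB AV libraries alone. POX01417, POX02313, POX07757, POX09674 and POX09677 passed only through other libraries, so their calls rest on libraries that let them pass. With the genes listed at 0 on AV set to the bound that 3 counts per library allow, the median at 24 h was 3.79, and those at 12 h and 36 h did not move.

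In dClrB the summed level of the members was 1858 to 2161 CPM on AV at 12 h, 1203 to 1308 CPM at 24 h, and at 36 h 1671 to 1879 CPM. On WA it was 34694 to 46152, 12961 to 22197 and 15436 to 18470 CPM. No library on AV came near any library on WA. Of the members, 33 were called higher at all 3 times, as were 3.39% of all genes tested, 1 at 2 times, 2 at 1 time and 1 at none.

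The member with the widest range was POX07757. In dClrB it stood at 0.275, 0.373 and 0.749 CPM on AV at 12 h and at 1637, 4175 and 7805 CPM on WA. The log2 fold change was 13.23 ± 1.03 (SE, n = 3 against 3; adjusted p = 2.15e-12), and it was 11.35 at 24 h and 8.71 at 36 h. Every WA library lay far above every AV library, although the 3 WA libraries at 12 h differed among themselves by more than 4 times. POX07757 passed the filter only through libraries other than those of dClrB on AV.

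Among the other large changes in dClrB were those of the consecutive IDs POX09676 and POX09677 and of POX01417. POX09677 was at 0.373, 0.964 and 1.198 CPM on AV and at 896, 921 and 1350 CPM on WA at 12 h (log2 fold change 10.27 ± 0.78 SE, adjusted p = 1.11e-12). POX09676 was at 1.86 to 2.89 CPM on AV and at 1270 to 1835 CPM on WA (9.36 ± 0.61 SE). POX01417 was at 0.275 to 0.599 CPM on AV and at 137 to 216 CPM on WA (8.77 ± 0.64 SE). None of these groups overlapped, but POX09677 and POX01417 passed the filter only through libraries other than those of dClrB on AV.

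At 24 h POX08964 was listed at 0, 0 and 8.96 CPM on AV in dClrB and stood at 1952, 2219 and 2254 CPM on WA. Its log2 fold change was 9.63 ± 1.75 (SE, n = 3 against 3; adjusted p = 4.23e-05). POX08478 rose from 2.36 to 4.41 CPM on AV to 421 to 829 CPM on WA at the same time, a log2 fold change of 7.37 ± 0.74 (SE). At 36 h POX02512 was at 0, 0.443 and 1.24 CPM on AV and at 132, 142 and 184 CPM on WA (8.06 ± 1.57 SE).

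A pair of members was listed at 0 in every dClrB library on AV at 36 h. POX00247 was at 14.6, 20.9 and 25.7 CPM on WA, at least 48.04-fold higher when 0 is replaced by 3 counts per library. POX02313 was at 5.60, 17.2 and 29.2 CPM on WA, at least 40.8-fold higher by the same measure. Both bounds take a listed 0 as a true low count, which was not tested. Both were called at 36 h (adjusted p = 0.00312 and 0.0111). POX00247 was not called at 12 h or 24 h, where 1 AV library held 5.02 and 24.1 CPM and the other two 0, but with the quantification set (libraries F, S and T) as a block its adjusted p was 0.0415 and 0.0321. POX02313 was not called at 24 h, where its WA libraries also held little, at 0, 0.618 and 5.61 CPM.

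POX01895 and POX00062 did not follow the rest in dClrB. POX01895 was at 53.3, 97.9 and 152 CPM on AV at 12 h and at 24.6, 30.8 and 32.5 CPM on WA, and its fall of 1.69 on the log2 scale (SE 0.42, adjusted p = 9.44e-04) made it the single member called lower on WA. Over all genes 18.6% were called lower there. At 24 h its groups overlapped, and at 36 h it was higher on WA, at 98.9 to 108 CPM against 29.96 to 55.7 CPM on AV (log2 fold change 1.28 ± 0.41 SE, adjusted p = 0.0143). In libraries labelled dPOX01167 it was at 3.78, 4.18 and 19.8 CPM on AV at 12 h and at 40.1 to 46.5 CPM on WA, a rise of 2.58 ± 0.43 (SE, adjusted p = 8.58e-06).

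POX00062 was not called at any time in dClrB. At 12 h it stood at 23.2 to 29.6 CPM on AV and at 27.7 to 31.9 CPM on WA, with overlap. At 24 h it was at 20.6 to 31.1 CPM on AV and 42.5 to 48.2 CPM on WA, and at 36 h at 24.9 to 28.0 and 37.8 to 50.9 CPM, both without overlap. All 9 WA libraries were above the AV library of the same set. The fitted log2 fold changes were 0.26, 0.92 and 0.76 (adjusted p = 0.847, 0.444 and 0.556, and with the quantification set as a block 0.740, 0.243 and 0.329). In Ku70 it was listed at 0 in all 6 AV libraries and at 24.3 to 47.1 CPM in the 9 WA libraries. Its membership thus rests on values of 0 in Ku70 on AV. A listed 0 in these tables can be a failed estimate, which was not tested.

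**Figure D2:**
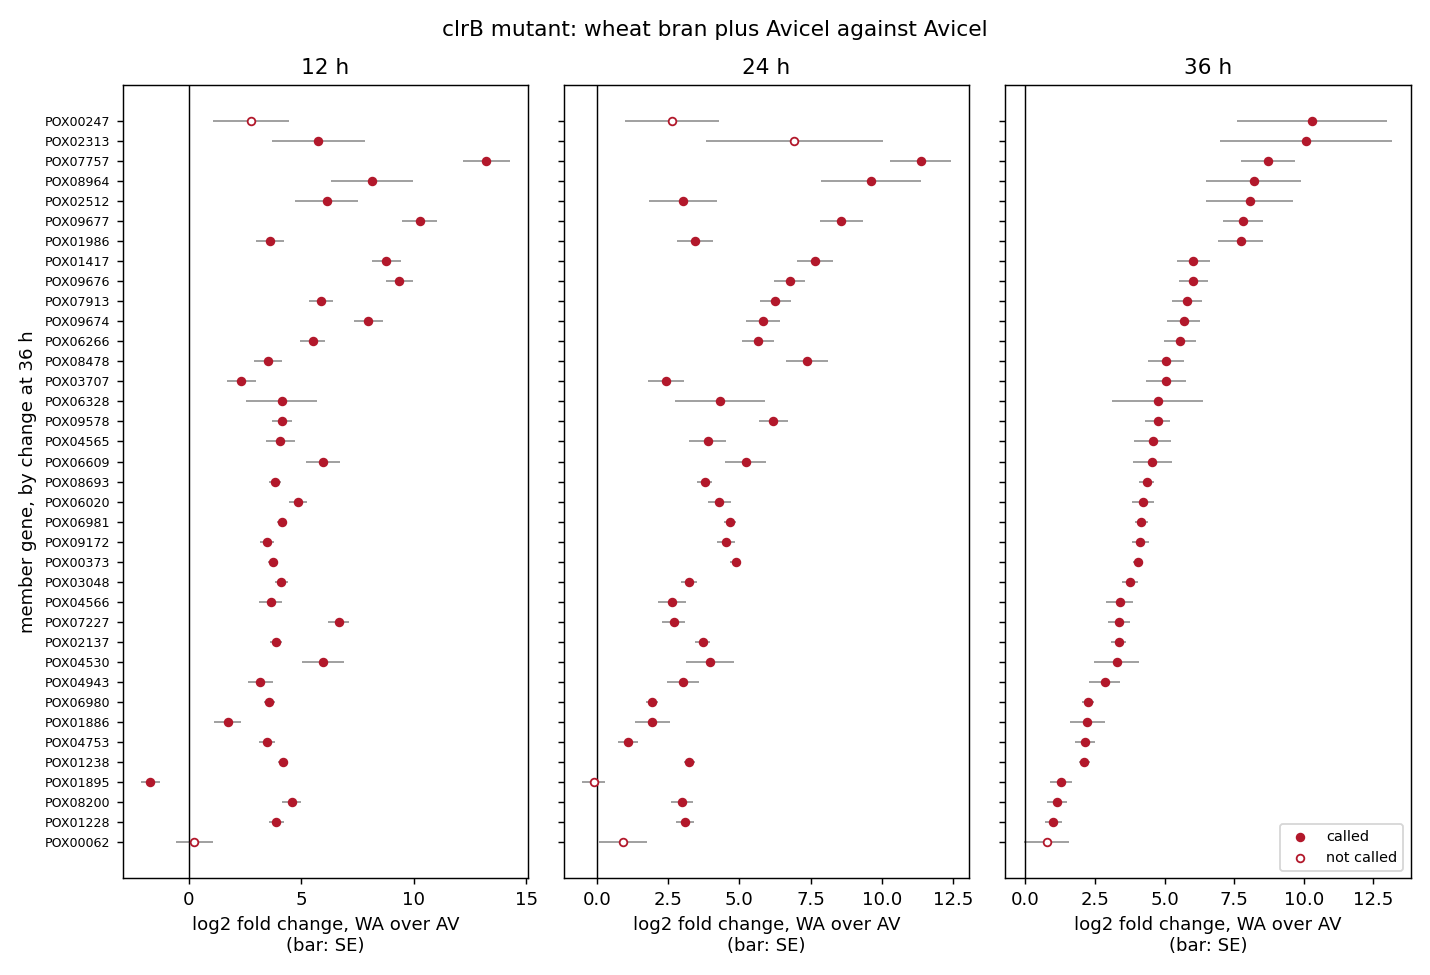
Log2 fold changes of the 37 members in dClrB, WA over AV, at 12, 24 and 36 h (3 against 3 libraries), with bars of 1 SE, filled where called and open where not. Nearly every point lies right of 0 at each time, and POX01895 moves from -1.69 at 12 h to 1.28 at 36 h.

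The libraries labelled dPOX01167 gave a like count at 12 h and fewer calls at 36 h. On WA against AV, 32 of 37 members were called higher at 12 h (12.6% of all genes tested) and 28 at 36 h (16.9%), by the same edgeR test with Benjamini-Hochberg adjustment. Median log2 fold changes of the members were 3.74 and 2.58, against -0.10 and 0.00 over all genes. All but POX00247 of the 37 would have passed the filter on the AV libraries of this label alone. On plain library totals, an alternative chosen after seeing the data, the median over all genes was lower by 0.31 at 12 h and 0.19 at 36 h. There 30 and 27 members were called, and the shares over all genes were not counted. Library T was the AV library without POX01167 counts at 12 h, while at 36 h all 3 AV libraries hold such counts.

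The summed level on AV in these libraries was 1728 to 1951 CPM at 12 h, and at 36 h 3863 to 5707 CPM, and on WA it was 24762 to 29437 and 16653 to 20001 CPM. At 36 h the AV sum thus stood above all AV libraries of Ku70 and dClrB. Of the members, 25 were called higher at both times, against 3.94% of all genes tested. Those 25 were also called at all 3 times in dClrB, and 1.10% of all genes tested were called higher in all 5 comparisons. The POX01167 levels are given above, and whether the 36 h AV values belong to a deletion strain was not tested.

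At 12 h the consecutive IDs POX09676 and POX09677 led under this label. POX09676 was at 2.54, 2.72 and 3.09 CPM on AV at 12 h and at 1007, 1010 and 1169 CPM on WA (log2 fold change 8.87 ± 0.59 SE, adjusted p = 7.45e-14). POX09677 was at 1.60 to 3.65 CPM on AV and 640 to 1046 CPM on WA (8.58 ± 0.72 SE). POX02512, POX09674 and POX07913 followed with log2 fold changes of 6.79, 6.58 and 6.51. At 36 h the largest were POX07913 (5.34), POX02512 (4.88), POX08964 (4.78), POX08478 (4.27) and POX06328 (4.15), all past the threshold. Fitted on the 2 groups alone, POX02512 at 12 h and POX08964 and POX06328 at 36 h missed it (adjusted p = 0.0622, 0.0562 and 0.0955), and POX06328 also missed it without AV library S or T or WA library F (0.0598 to 0.102).

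A few members ran the other way under this label. POX07227 was at 236, 354 and 456 CPM on AV at 36 h and at 28.1, 30.1 and 43.4 CPM on WA. It was the single member called lower, with a fall of 3.21 on the log2 scale (SE 0.40, adjusted p = 5.12e-08), and 10.1% of all genes were called lower. On AV it was at 3.04 to 7.61 CPM in Ku70, at 1.91 to 4.82 CPM in dClrB, and at 4.70 to 23.2 CPM under this label at 12 h.

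POX08693 was at 186, 238 and 309 CPM on AV at 12 h and at 95.4, 105 and 129 CPM on WA in libraries labelled dPOX01167. The groups did not overlap, but the fall of 0.83 on the log2 scale (SE 0.23, adjusted p = 0.00359) missed the fold required. At 36 h it was higher on WA, by 1.97 ± 0.24 (SE) on the log2 scale. POX07757 was at 63.6, 70.0 and 70.6 CPM on AV at 12 h and at 28.8, 49.1 and 65.3 CPM on WA, and it was not called (adjusted p = 0.843), against at most 1.23 CPM on AV in Ku70 and 0.749 CPM in dClrB.

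On WA at 24 h few differences from Ku70 were called, among the members as over all genes. The absence of a call does not show equal levels. The summed level was 12961, 16023 and 22197 CPM in dClrB and 14989, 15456 and 15687 CPM in dPOX01167, beside 17068 to 19091 CPM in Ku70. Between dClrB and Ku70, 1 member was called in either direction, where 0.712% of all genes were called. The median log2 difference of the members was -0.11, and that over all genes tested was 0.00. With the quantification set as a block (libraries F, S and T), 2 members were called, and the share over all genes was not counted.

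That member was POX07757. It stood at 5.50, 14.2 and 17.5 CPM in Ku70 and at 121, 139 and 201 CPM in dClrB on WA at 24 h. The 3 dClrB libraries were all above the 3 of Ku70, with a log2 fold change of 3.58 ± 0.68 (SE, adjusted p = 0.00252). Fitted on those 6 libraries alone the adjusted p was 0.0990. At 12 h, where the Ku70 libraries chose the members, it was at 27.3, 220 and 412 CPM in Ku70, and at 36 h at 26.7 to 45.6 CPM in Ku70 and 34.7 to 62.8 CPM in dClrB.

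POX08964 and POX07913 were also higher in dClrB on WA at 24 h without overlap, and they were not called. POX08964 stood at 656, 683 and 719 CPM in Ku70, and the log2 difference of 1.63 had an SE of 1.23 (adjusted p = 0.939). POX07913 was at 117, 164 and 182 CPM in Ku70 and at 364, 378 and 432 CPM in dClrB (log2 difference 1.32 ± 0.43 SE, adjusted p = 0.181). POX01228 lay lower in dClrB, at 46.4 to 52.03 CPM against 85.9 to 109 CPM, and was not called either (adjusted p = 0.0870), but with the quantification set as a block it was (adjusted p = 0.0351).

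Between dPOX01167 and Ku70 on WA at 24 h, 0 of 37 members were called by edgeR's quasi-likelihood test. An unadjusted p under 0.05 was found for 2, with the share over all genes not counted. DESeq2 and limma called 0 as well. Over all genes 0.0614% were called. The median log2 difference of the members was -0.26, against 0.01 over all genes tested, and 8 of the 37 lay above 0. Estimated log2 differences ran from -1.22 (POX03707) to 0.89 (POX08964).

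**Figure D3:**
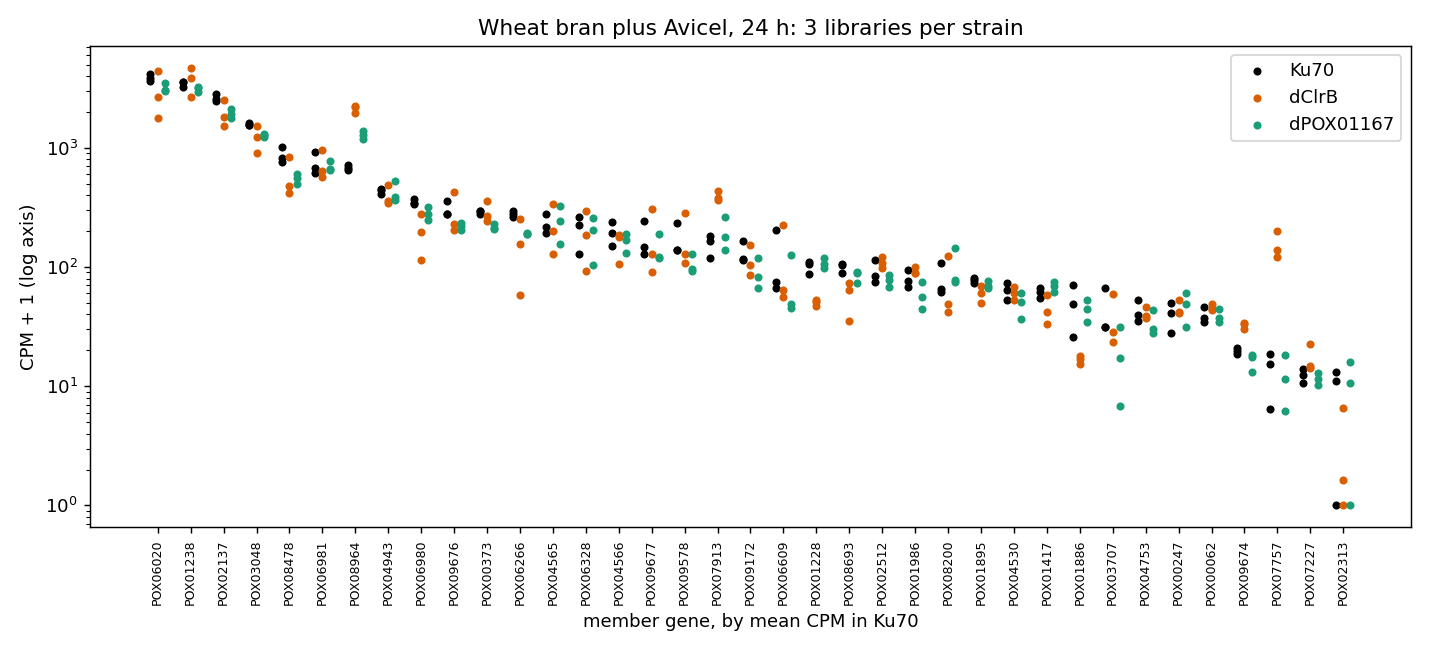
CPM + 1 on a log axis for the 37 members on WA at 24 h, 3 libraries per strain for Ku70, dClrB and dPOX01167. The points of the 3 strains lie close together for most genes, and POX07757 in dClrB (121 to 201 CPM) lies above both other strains.

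The mutants were also compared with each other on WA, which uses no Ku70 library. The 24 h libraries are shared with the comparisons above. At 12 h 2 of 37 members were called (0.687% of all genes), at 24 h 1 (0.810%) and at 36 h 2 (1.36%). Blocking by quantification set raised the counts at 12 h and 24 h to 4 and 2, and the shares over all genes under the block were not counted.

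POX07757 was lower in dPOX01167 at each time. At 12 h it was at 28.8 to 65.3 CPM against 1637 to 7805 CPM in dClrB, a fall of 6.53 on the log2 scale (SE 0.78, adjusted p = 8.13e-07). At 24 h it was at 5.23, 10.5 and 17.4 CPM and the fall was 3.76 (SE 0.68, adjusted p = 0.00153). At 36 h it was at 5.48 to 7.48 CPM and the fall was 2.76 (SE 0.66, adjusted p = 0.0159), a call lost without any 1 of the 3 dPOX01167 libraries (adjusted p of 0.0619 to 0.109).

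POX01228 was higher in dPOX01167 at 12 h, at 156, 189 and 260 CPM against 57.5, 61.8 and 74.0 CPM in dClrB (log2 difference 1.64 ± 0.30 SE, adjusted p = 0.00116). In Ku70 at that time it was at 166 to 310 CPM. POX04753 was higher in dPOX01167 at 36 h, at 65.2, 134 and 198 CPM against 36.9 to 47.3 CPM in dClrB (1.70 ± 0.35 SE, adjusted p = 0.00301). Without dPOX01167 library F, the highest, its adjusted p was 0.0593. With the 2 groups of 12 h fitted alone, no member was called there, and the adjusted p of POX07757 and POX01228 was 0.0852. The same kind of fit gave 0.0835 for POX07757 at 24 h and 0.154 for POX04753 at 36 h.

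On WA the members differed in when they were highest. By the mean of 3 libraries, 18 were highest at 12 h, 10 at 24 h and 9 at 36 h in Ku70. Of the 5769 genes with at least 10 CPM there, 37.8%, 40.1% and 22.1% were highest at those times. In dClrB the numbers were 26, 6 and 5 members, beside 35.2%, 34.5% and 30.3% of 5885 genes. In dPOX01167 they were 21, 6 and 10 members, beside 32.1%, 40.8% and 27.1% of 5883 genes. These counts are descriptions, since the Ku70 libraries of 12 h and 36 h chose the members.

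In the mutants the change from 12 h to 36 h on WA was tested. In dClrB 14 members were lower at 36 h and 1 was higher, where 7.57% of all genes were lower and 13.1% higher. In dPOX01167 13 were lower and 2 higher, against 4.48% lower and 9.56% higher. The median log2 change of the members was -0.81 in dClrB and -0.44 in dPOX01167, against 0.06 and 0.04 over all genes. The lower calls shared 11 members, which is 78.6% of those in dClrB and 84.6% of those in dPOX01167. Over all genes the lower calls shared 277, or 44.9% of 617 in dClrB and 75.9% of 365 in dPOX01167.

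POX07757 fell most in dClrB, by 6.58 on the log2 scale (SE 0.78, adjusted p = 3.08e-08), from the levels given above to 34.7, 42.9 and 62.8 CPM. POX07227 fell from 259 to 427 CPM at 12 h to 25.6 to 38.4 CPM at 36 h (3.39 on the log2 scale). POX09677, POX09674 and POX01417 fell by 3.01, 2.79 and 2.64. The other lower members in dClrB, with falls between 2.53 and 1.21, were POX09676, POX01986, POX04753, POX03048, POX06020, POX06980, POX08200, POX04566 and POX01238.

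In dPOX01167 the largest fall was that of POX01417, from 173, 221 and 248 CPM at 12 h to 22.99, 25.3 and 32.03 CPM at 36 h, or 2.98 on the log2 scale (SE 0.47). POX07757, POX09674, POX09677 and POX09676 fell by 2.82, 2.65, 2.39 and 1.98. Ku70 gave like levels for POX01417, at 179 to 238 CPM at 12 h, 53.8 to 65.5 CPM at 24 h, and at 36 h 22.4 to 31.3 CPM.

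Few members rose with time. In dPOX01167 POX03707 went from 138, 164 and 184 CPM at 12 h through 5.85 to 30.5 CPM at 24 h to 580, 659 and 934 CPM at 36 h, with a log2 change from 12 h to 36 h of 2.18 ± 0.63 (SE, adjusted p = 0.00858). Ku70 showed the same dip, at 137 to 215, 30.1 to 65.98 and 720 to 1088 CPM. POX09172 rose by 1.23 in dPOX01167, and POX01895 rose by 1.84 in dClrB.

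POX08964 had a peak at 24 h in all 3 strains. Ku70 held 53.99 to 65.7 CPM at 12 h, 656 to 719 CPM at 24 h, and at 36 h 54.7 to 82.4 CPM. The dPOX01167 libraries held 40.9 to 62.6, 1179 to 1397 and 153 to 169 CPM, and those of dClrB 40 to 55.01, 1952 to 2254 and 183 to 232 CPM. In each strain the 24 h libraries lay above all others on WA.

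**Figure D4:**
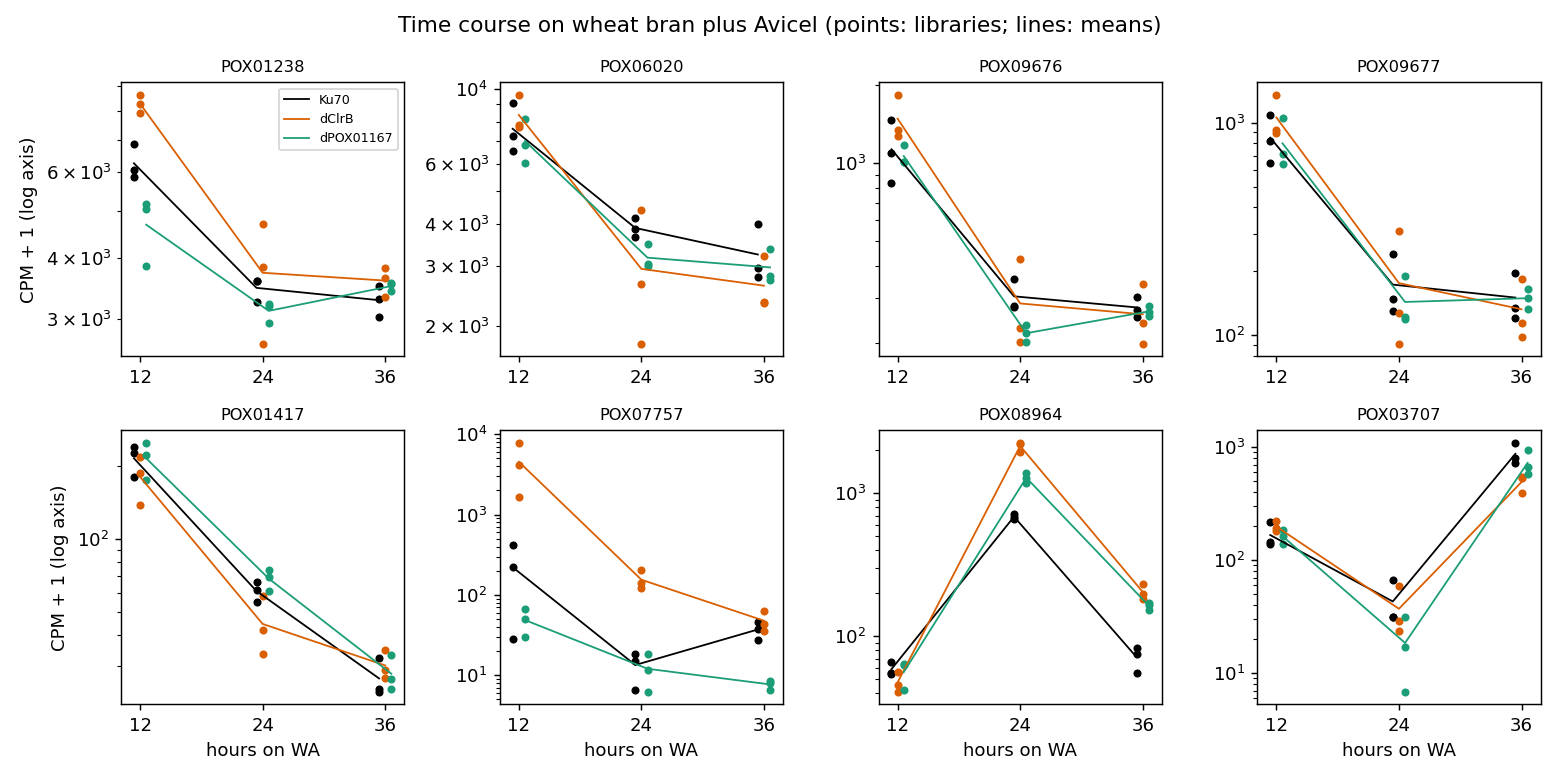
CPM + 1 on log axes for 8 members on WA at 12, 24 and 36 h, with points for the 3 libraries of each strain and lines through the means. POX01417 is lower at each later time in all 3 strains, POX08964 peaks and POX03707 dips at 24 h, and POX07757 in dClrB starts at 1637 to 7805 CPM.

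A total of 6 members form 3 pairs of consecutive IDs, POX04565 with POX04566, POX06980 with POX06981, and POX09676 with POX09677, and POX09674 stands near the last pair. The files give no coordinates, so only the numbering is known. The CPM of POX09676 was 1.12 to 2.24 times that of POX09677 over the 27 WA libraries. Their coding lengths are 1599 and 684 bases. By FPKM the order was reversed in Ku70 on WA at 12 h, at 586 to 1002 against 1275 to 1996 FPKM. Both were highest at 12 h in all 3 strains, in Ku70 with 832 to 1464 CPM and 643 to 1088 CPM.

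The pair POX06980 and POX06981 did not keep one ratio. By CPM, POX06980 was 1.36 to 2.23 times POX06981 at 12 h over the 3 strains, and 0.199 to 0.559 times at 24 h. The coding lengths differ, at 1608 and 711 bases. By FPKM, POX06980 lay below POX06981 in Ku70 at 12 h as well, at 387 to 480 against 750 to 807 FPKM. In Ku70 POX06980 went from 552 to 706 CPM at 12 h to 337 to 368 CPM at 24 h, while POX06981 went from 407 to 430 CPM to 613 to 921 CPM. For POX04565 and POX04566 the ratio of CPM was 0.380 to 1.27 at 12 h and 0.903 to 1.95 at 24 h.

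In the wild type HP7-1 the wheat-bran media were compared with glucose, after 72 h from spores. The members were chosen against AV after transfer, so the counts here are not comparable with those of the mutants. Of 37, 12 were called higher on the 3 wheat-bran libraries than on the 3 glucose libraries (11.5% of 8526 genes tested) and 2 were called lower (10.5%). The median log2 difference of the members was 0.59, and 0.13 over all genes. A total of 33 members would have passed the filter on the glucose libraries alone, and POX02512, POX04530, POX01417 and POX07757 passed only through the wheat-bran libraries. Of these, POX02512, POX04530 and POX01417 are among the 12 called higher, so their calls rest on the libraries that let them pass. On plain library totals the median over all genes rose by 0.39 to 0.51 and that of the members was 0.98. There 15 members were called higher, and the share over all genes was not counted. Each wheat-bran medium has 1 library, so differences between these media are part of the spread, and the glucose libraries are shallow.

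POX02512 led. It was listed at 0, 0 and 1.11 CPM on glucose and stood at 272 CPM on wheat bran, 419 CPM with rice straw and 343 CPM with bagasse (log2 difference 8.58 ± 0.57 SE, adjusted p = 1.27e-05). POX04530 was listed at 0 in all 3 glucose libraries and at 38.3, 15.4 and 33.2 CPM on wheat bran, with rice straw and with bagasse, at least 4.56-fold higher. POX04753 was at 0, 4.43 and 19.1 CPM on glucose and at 217, 130 and 124 CPM on those media (4.08 ± 0.57 SE).

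POX01417 was listed at 0, 0 and 2.21 CPM on glucose and at 51.0, 16.7 and 14.6 CPM on the wheat-bran media (log2 difference 3.95 ± 0.90 SE), and POX00373 at 2.51 to 12.2 CPM and 87.0 to 271 CPM (3.82 ± 0.51 SE). The other 7 called higher were POX09172, POX01986, POX06609, POX06266, POX06328, POX08200 and POX00247, with log2 differences between 1.02 and 3.62.

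The members with the highest levels on WA were not called in HP7-1. POX01238 was at 661, 748 and 865 CPM on glucose and at 1230, 1596 and 1659 CPM on the wheat-bran media, and POX06020 at 426 to 470 CPM and 585 to 864 CPM. The groups of both genes did not overlap. POX02137 and POX03048 overlapped, at 71.0 to 114.1 against 69.1 to 128 CPM and at 443 to 620 against 418 to 466 CPM.

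The pair POX09676 and POX09677, among the largest changes in the mutants, stood at 7.53 to 19.9 and 0 to 17.7 CPM on glucose and at 2.25 to 24.1 and 5.31 to 14.2 CPM on the wheat-bran media, with overlap. POX07227 was lower on the wheat-bran media, at 0, 1.61 and 4.25 CPM against 10.9, 19.9 and 25.1 CPM on glucose, a fall of 3.67 on the log2 scale (SE 0.68, adjusted p = 0.00293). POX04566 fell by 1.09 (SE 0.28, adjusted p = 0.0169) with overlapping groups, a call lost on plain library totals (adjusted p = 0.0957) and without any of 3 libraries (glucose F, rice straw or bagasse; adjusted p of 0.0503 to 0.0836).

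**Figure D5:**
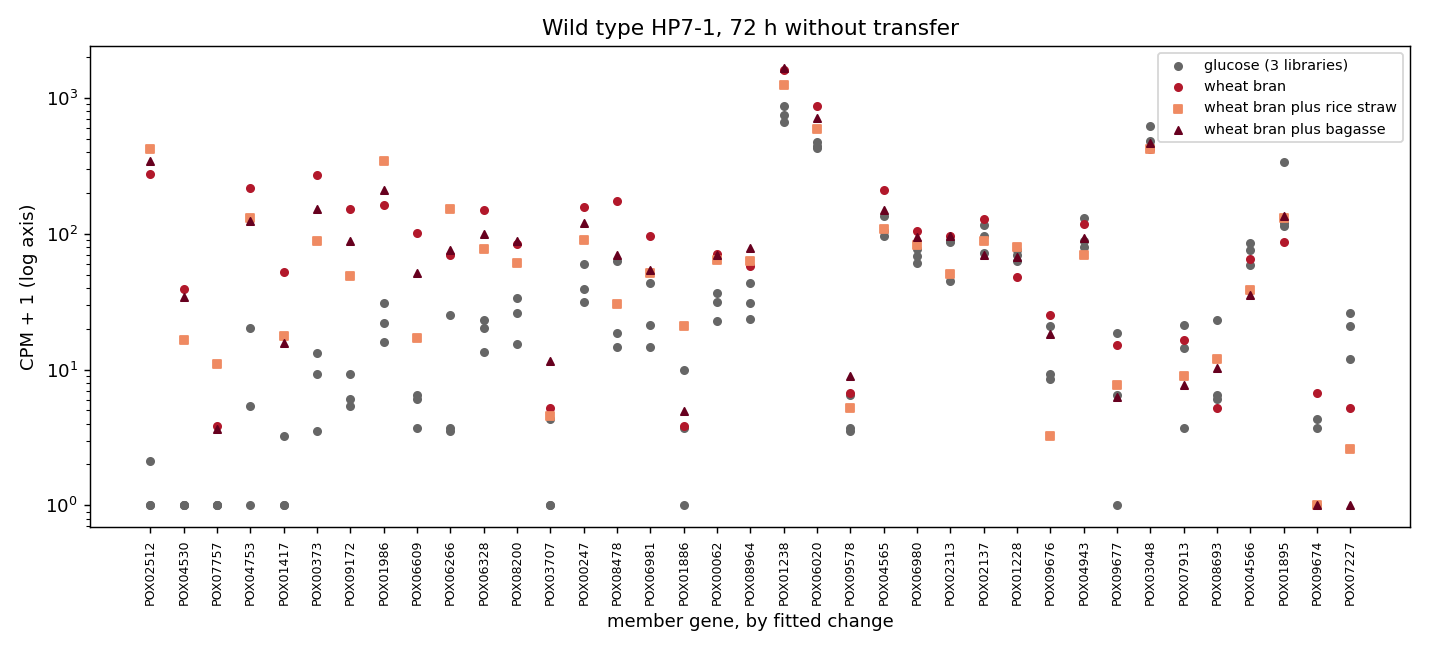
CPM + 1 on a log axis for the 37 members in HP7-1, with grey points for 3 glucose libraries and coloured marks for the 3 wheat-bran media, genes ordered by fitted difference. The coloured marks lie above the grey ones on the left, from POX02512, and below them for POX07227 on the right.

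The 24 Ku70 libraries that spent 24 h on 2% Avicel, called an induced carbon source in the labels, give another reference. They come from tables with other depths and were not tested against the time course. The lowest Ku70 library on WA at 24 h lay above the highest of the 24 for 23 members, where 9.99% of 8542 genes did so. The highest medians in the induced libraries were those of POX01238 (568 CPM, range 319 to 1328), POX03048 (348 CPM) and POX06020 (246 CPM). The lowest were POX07757 (0.139 CPM), POX09674 (0.662 CPM) and POX09677 (1.58 CPM).

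POX02313 and POX01895 lay the other way, with all WA 24 h libraries of Ku70 below all 24 induced ones, as for 10.6% of the 8542 genes. POX01895 was at 93.7 to 281 CPM there against 72.0 to 79.8 CPM on WA, and POX02313 at 34.3 to 89.2 CPM against 0 to 12.2 CPM. POX00062, listed at 0 in Ku70 on AV, was at 36.9 to 78.7 CPM in the induced libraries (median 65.3). POX00247 was at 36.7 to 112 CPM in them (median 57.5). Both medians lay above all Ku70 libraries on WA at 24 h, which reached 44.8 and 49.4 CPM. By their medians, POX00062, POX00247, POX01895 and POX02313 were thus not low in this larger Ku70 group on Avicel. Other members also passed their WA 24 h levels in some of the 24 libraries. POX08478 reached 1567 CPM and POX01228 367 CPM, against at most 1008 and 109 CPM in Ku70 on WA at 24 h.

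Over the rest of the series the summed level of the 37 stayed below that on WA, with 1 library as an exception. It was 1551 to 6498 CPM in the 24 Ku70 induced libraries, 2029 to 2193 CPM in dClrB grown from spores for 72 h, and 8760 to 11798 CPM with oleic acid in dPOX07277, which lacks POX07277, the highest group outside WA. In dPOX01167 grown from spores for 72 h, libraries F and T held 2556 and 2627 CPM and library S held 17641 CPM. POX06020 there was at 58.7, 70.9 and 3469 CPM, so the mean of that group describes none of its libraries.

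Some members followed the quantification set. The FPKM per count of 3835 genes parts the 48 transferred libraries into 3 sets, F, S and T, with 1 library of each group in each. POX06328 was highest in F and lowest in S in all 16 groups, and it was listed at 0 in every S library on AV. POX02512 and POX04565 were highest in F in 15 groups, POX06020 and POX08200 in 14, and POX06609 and POX06981 in 13. POX04566 was lowest in S in 15 groups and highest in T in 13. POX02313 was lowest in F in 12 groups and highest in F in 0. On WA at 24 h it was listed at 0 in the F library of all 3 strains. In Ku70 on WA at 24 h POX06609 was at 205 CPM in its highest library and at 65.5 and 74.1 CPM in the others. The length implied by FPKM and count varied between libraries by 2.65 times for POX06609, 1.92 times for POX04566 and 1.501 times for POX08200, against a median of 1.13 and a 95th percentile of 3.45 over 5954 genes. The part of the sets in these values was not tested.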

How the data were processed

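Each library came as a table with an expected count per gene (an estimated number of reads that need not be whole), an FPKM value and, in 4 files, a length, all deposited by the authors. The submitters' processing notes name RSEM 1.2.12, DESeq2, Bowtie2 2.1.0 and BWA 0.7.10-r789. What each tool did, which genome build and annotation served, and how reads shared by similar or overlapping genes were counted is not given in the sources used here. Genes that share reads are therefore uncertain. The reference table of 9964 genes matched 0 of the IDs.

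Rounding the authors' expected counts to integers shifted no library by more than 0.0086%. Genes averaging 1 CPM or more over a fit were tested with edgeR 4.0.16 in R 4.3.3 (quasi-likelihood, TMM scaling, Benjamini-Hochberg over all genes tested, two-sided), with 1 fit for the 48 transferred libraries and 1 for the 6 of HP7-1. Each SE is the absolute log2 fold change divided by the square root of that test's F statistic. It is thus derived from the test, with a spread shared over all groups of the fit, and not from the compared libraries alone. DESeq2 1.42.0 and limma 3.58.1 on log2(CPM + 1) were alternatives. The edgeR step was run on simulated independent counts with the same dispersion for every gene and no set effect. That run does not cover the shared deviations between libraries given below. Levels are plain CPM, and FPKM as deposited by the authors compares genes. Same-lettered or same-set libraries of compared groups deviated together (correlations 0.57 to 0.94, 36 pairs). The pairing comes from the labels' letters in 33 libraries and from FPKM per count in the others. All 51 pairs of libraries within these groups differed beyond sampling noise (chi-square per degree of freedom 2.30 to 495).

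The members and lists were chosen with earlier results of these data known. Members were named by rule: the highest and lowest on WA at 24 h and in the induced libraries, up to 5 called per direction and comparison, those nearest the threshold, consecutive IDs, and those not higher on WA in dClrB. Others named as not called or as set-dependent were picked after their values were seen. Ku70 at 12 h and 36 h chose the members and was not tested against the mutants.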

Additional observations from a re-analysis of the deposited data

Results flagged for a closer look

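Members with opposite, non-overlapping differences between WA and AV in different groups were POX01895, POX07227 and POX08693. The differences between groups were not tested, and all but one of these comparisons of opposite sign involve AV libraries labelled dPOX01167. The log2 fold change of POX01895 was -1.69 at 12 h and 1.28 at 36 h in dClrB, and 2.58 at 12 h in libraries labelled dPOX01167. That of POX07227 was 6.66, 2.70 and 3.36 at 12, 24 and 36 h in dClrB, and 3.56 at 12 h and -3.21 at 36 h in libraries labelled dPOX01167. That of POX08693 was 3.85, 3.79 and 4.36 in dClrB, and -0.83 at 12 h and 1.97 at 36 h in libraries labelled dPOX01167.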

How the results depend on the processing

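Membership moved most with the fold required, to 61 genes at 3 times and 20 at 6 times, and was 37 to 42 without each Ku70 library in turn and 36 on FPKM, a setting chosen after seeing the data. Of 106 counts under other settings, 94 stayed within 1.5 times. The replicate block changed the counts by over 1.5 times in 3 comparisons on WA: dClrB against Ku70 at 24 h (2), and dPOX01167 against dClrB at 12 h (4) and 24 h (2). DESeq2 gave 2, 4 and 3 there. In dPOX01167 against dClrB at 12 h the 2 groups alone gave 0. Chosen after seeing the data, leaving out the 6 AV libraries labelled dPOX01167 gave 2 for dClrB against Ku70 at 24 h, and 2 and 4 for dPOX01167 against dClrB at 24 h and 36 h. No call changed sign in 715 refits of named members, and 20 lost significance. For the other settings only calls of the members were counted, so no share over all genes stands beside these counts.

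Leaving out 1 library at a time, members higher on WA numbered 31 to 34, 29 to 33 and 33 to 36 in dClrB at 12, 24 and 36 h, and 30 to 31 and 27 to 28 under the dPOX01167 label. HP7-1 gave 10 to 13. Calls were 1 to 2 for dClrB against Ku70, where leaving out dClrB library F gave 2, and 0 for dPOX01167 against Ku70. They were 2 to 3, 1 (in each case) and 0 to 2 for dPOX01167 against dClrB, and 14 to 16 and 12 to 15 for the changes with time. Shallow HP7-1 libraries limit low genes, since 1 count in 365937 is the step there.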
